A study of Mus musculus with 2 samples.

Results

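The cornified envelope genes are the genes for the proteins that replace the plasma membrane of a dying keratinocyte with a crosslinked shell, together with the enzymes and secreted partners of that shell. They were taken by symbol: every gene named Sprr or Lce with a number, and 17 further genes listed by name. On these arrays 45 genes answered to the rule, with 55 probes, out of 17873 genes and 25697 probes in all. Of the 45, 27 were found under the symbol in the deposited table and 18 only after old symbols had been updated (the late cornified envelope genes were listed under Sprrl symbols, clone names or, for Lce3a, LOC545548, and Flg2 as EG229574). Flg and Tchh had no probe under either name. A probe was called detected where fewer than 1% of the negative controls were as bright, and 41 members were detected on both arrays, 2 on the knockout array only and 2 on neither.

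The samples were excised skin wounds of C57BL6 mice on a low calcium diet. The knockout mice were b-catenin fl/fl with Cre driven by K14, the keratin 14 promoter, so that beta-catenin, which links cadherins to the cytoskeleton and carries Wnt signals to the nucleus, was to be deleted in keratin 14-expressing keratinocytes. The controls were littermates of genotype b-catenin fl/fl with no Cre. All mice were 3 months old, received 2 full-thickness back wounds from a 6-mm punch, and had the wounds cut out with an 8-mm punch 3 days later, so both samples hold wound bed, wound edge and adjoining skin with every cell type of it. Each group was 1 array of RNA pooled from 3 mice. There is therefore no replicate array, and every difference given here is between 2 arrays, without an error or a test. In whole tissue more cells of a type and more RNA per cell cannot be told apart.

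The envelope is built in the upper epidermis. Involucrin and other early precursors are joined under the membrane, loricrin and the small proline-rich (Sprr) proteins are added, transglutaminases tie them together through glutamine and lysine side chains, and the late cornified envelope (Lce) proteins come last. The Sprr, Lce, loricrin, involucrin and filaggrin-type genes lie side by side in 1 cluster, the epidermal differentiation complex. Sprr1 and Sprr2 genes are known to be induced in stressed and wounded epidermis, and in human skin the LCE3 group is known as the injury-induced branch of the LCE family, whereas LCE1 genes, loricrin and filaggrin-type genes belong to undisturbed epidermis.

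The stretches that precede the start of the Sprr2 genes are shown because 8 Sprr2 genes were higher in the knockout array, as given further on. Each is the 200 bases before the annotated start, 5′ to 3′ on the gene's strand, from RefSeq on GRCm38.p6. Capitals mark matches to the AP-1 motif TGAGTCA (or its reverse complement TGACTCA), to the octamer ATTTGCAT and to the TATA box TATAAA in the last 50 bases.
Sprr2b (chr3:92316505-92316704, plus strand): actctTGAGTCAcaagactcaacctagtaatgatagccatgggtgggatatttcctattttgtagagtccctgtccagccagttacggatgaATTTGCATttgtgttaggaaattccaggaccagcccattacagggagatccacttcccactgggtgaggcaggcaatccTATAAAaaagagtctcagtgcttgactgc
Sprr2d (chr3:92338940-92339139, plus strand): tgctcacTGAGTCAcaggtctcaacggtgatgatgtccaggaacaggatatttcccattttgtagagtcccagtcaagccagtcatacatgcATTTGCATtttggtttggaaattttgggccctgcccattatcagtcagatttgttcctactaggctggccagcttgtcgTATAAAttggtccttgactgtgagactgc
Sprr2e (chr3:92351943-92352142, plus strand): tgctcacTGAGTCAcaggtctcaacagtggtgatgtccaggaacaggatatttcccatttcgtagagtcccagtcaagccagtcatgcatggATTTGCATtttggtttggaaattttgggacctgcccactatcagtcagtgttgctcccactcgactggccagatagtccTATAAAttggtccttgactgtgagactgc
Sprr2f (chr3:92364987-92365186, plus strand): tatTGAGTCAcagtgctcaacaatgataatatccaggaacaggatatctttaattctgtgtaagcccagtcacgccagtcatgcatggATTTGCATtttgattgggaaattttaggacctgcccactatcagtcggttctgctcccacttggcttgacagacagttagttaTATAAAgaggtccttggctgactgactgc
Sprr2h (chr3:92385485-92385684, plus strand): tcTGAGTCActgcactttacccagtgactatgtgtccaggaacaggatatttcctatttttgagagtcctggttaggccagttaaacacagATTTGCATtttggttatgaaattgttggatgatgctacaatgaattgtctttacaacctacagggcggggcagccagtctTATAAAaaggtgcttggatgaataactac
Sprr2i (chr3:92407791-92407990, plus strand): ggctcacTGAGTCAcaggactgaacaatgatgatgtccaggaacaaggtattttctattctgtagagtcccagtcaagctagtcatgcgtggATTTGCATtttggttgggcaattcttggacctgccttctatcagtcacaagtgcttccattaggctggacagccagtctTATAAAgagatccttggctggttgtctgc
Sprr2k (chr3:92432382-92432581, plus strand): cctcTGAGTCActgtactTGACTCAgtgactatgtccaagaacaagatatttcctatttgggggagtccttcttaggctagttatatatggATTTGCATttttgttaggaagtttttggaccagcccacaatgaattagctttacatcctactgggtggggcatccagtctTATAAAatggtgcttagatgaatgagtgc

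All 7 carried the same order of letters: an AP-1 match between bases -198 and -187 from the start, the octamer between -112 and -101, and a TATA box at -29 to -24. Sprr2k, which was short of 1.5-fold and so not among the 8 higher Sprr2 genes, had the same letters and a further AP-1 match at -182 to -176. Sprr2g and Sprr2j are among those 8 but are not shown. The upstream stretches of Sprr2d and Sprr2e were the most alike, with 92.0% identity in a global alignment, and over all 28 pairs of Sprr2 promoters identity ran from 46.8% to 92.0% with a median of 68.0%. The table held 45 promoters of 41 members. Sprr2a, matched to its copy Sprr2a1, had none of these matches, and Lce1f, Crct1, Sprr2g and Sprr2j had no entry. Searched on both strands over 250 bases, the AP-1 letters stood in 8 of 12 Sprr promoters (7 of 8 Sprr2 promoters and that of Sprr1a), 0 of 15 Lce promoters and 7 of 18 promoters outside these families, against 4.5% of all 32851 mouse promoters of that length. The 7 outside these families include more than 1 promoter of Dmkn, and the others are of Ivl, Krtdap, Lor and Scel. The octamer, a motif picked after these sequences had been seen, stood in 7 of 8 Sprr2 promoters, in no other promoter of the group and in 1.6% of all promoters. The TCF/LEF letters CTTTGAT, a motif of the factors that beta-catenin binds, were in 0 of 12 Sprr and 0 of 15 Lce promoters and in 3 of the 18 others (Flg2, Krtdap and Tgm1), against 3.2% of all. The letters AACCNGTT, a motif of grainyhead-like factors, were in 1 promoter of the group (Rptn, 1.8% of all promoters). A match describes letters, not a bound site.

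The Lce3 genes are shown next because all 4 measured ones stood above 0. Capitals here mark ATAAAA in the last 50 bases, letters that overlap a TATA box by design; neither the AP-1 nor the octamer letters are in these windows.
Lce3a (chr3:92926231-92926430, minus strand): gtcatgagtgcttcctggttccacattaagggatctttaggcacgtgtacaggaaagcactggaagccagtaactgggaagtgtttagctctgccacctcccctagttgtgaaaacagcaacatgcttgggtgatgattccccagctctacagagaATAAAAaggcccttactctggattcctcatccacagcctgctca
Lce3b (chr3:92932779-92932978, plus strand): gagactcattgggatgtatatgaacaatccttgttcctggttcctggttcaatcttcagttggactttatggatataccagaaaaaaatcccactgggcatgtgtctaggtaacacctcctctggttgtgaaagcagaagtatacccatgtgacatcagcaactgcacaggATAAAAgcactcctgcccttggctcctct
Lce3c (chr3:92944286-92944485, plus strand): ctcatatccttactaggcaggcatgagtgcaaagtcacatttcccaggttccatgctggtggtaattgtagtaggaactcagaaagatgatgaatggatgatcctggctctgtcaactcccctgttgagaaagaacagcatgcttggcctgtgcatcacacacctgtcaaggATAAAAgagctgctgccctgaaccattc
Lce3f (chr3:92992017-92992216, plus strand): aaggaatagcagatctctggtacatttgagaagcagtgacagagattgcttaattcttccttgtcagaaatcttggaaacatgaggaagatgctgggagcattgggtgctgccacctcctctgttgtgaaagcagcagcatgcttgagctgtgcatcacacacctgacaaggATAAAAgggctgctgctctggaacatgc

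The 4 Lce3 stretches were 55.1% to 67.0% identical to one another. The letters ATAAAA stood in 14 of 15 Lce promoters, at -29 to -24 or a base from it in all but Lce3a (-44 to -39), against 5576 of 32851 promoters in all, and were also chosen after the sequences had been read.

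As a group, the cornified envelope genes stood higher in the knockout array. Of the 43 detected members, 15 (34.9%) were at least 1.5-fold higher and 0 were at least 1.5-fold lower, where 3.52% of the 9710 detected genes were higher and 4.48% lower by that rule. Sprr2b and Sprr2j count among the 15 by their fitted folds only. Neither was detected on the control array, and set against its detection limit they fell short, leaving 13 members higher. At 2-fold, 5 members were higher (Sprr2b, Sprr2e, Sprr2f, Sprr2h and Lce3a) and 0 lower, against 0.608% of detected genes in each direction. Sprr2b is among the 5 by its fitted fold only, its bound being 1.49-fold. Of the 5, only Sprr2e also reached 2-fold in the intensities as normalized by the authors, at 2.44-fold. The median log2 fold (knockout over control) was 0.33 for the 43 members and 0.00 for all detected genes, and 38 of the 43 lay above 0 compared with 50.5% of detected genes. The higher genes were concentrated in the Sprr2 and Lce3 subfamilies, with Cnfn, Tgm3, Lce1f and Lce1g beside them. The classical precursors loricrin and involucrin were level between the arrays. The 15 members past 1.5-fold were the same 15 that lay beyond the 95th percentile of all detected genes (log2 fold 0.51).

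**Figure D1:**
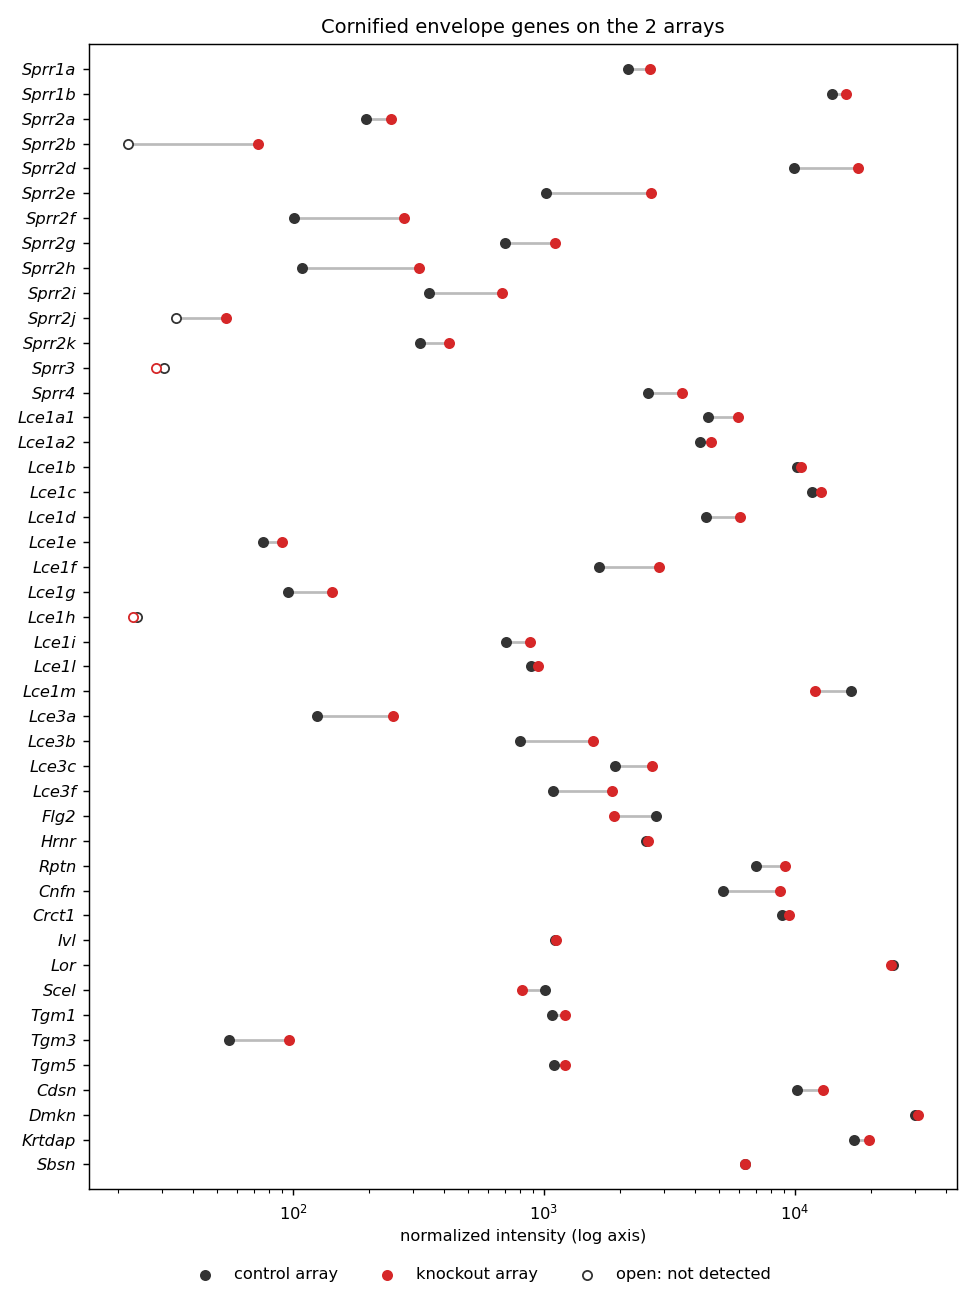
Normalized intensity (log axis) of the 45 members on the control array (black) and the knockout array (red), 1 array each, with open circles for a probe not detected. The Sprr2 and Lce3 genes lie to the right in the knockout array, Flg2, Lce1m and Scel to the left, and Lor, Ivl, Hrnr, Dmkn and Sbsn show nearly coincident points.

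Normalization sets the zero of these folds. Before it, the knockout array was dimmer, with a median log2 ratio of raw intensities of -0.14 over detected genes and -0.19 over those with a mean normalized intensity of at least 500, and only 21.5% of detected genes read brighter in the knockout. Even so 29 of the 43 members had a higher raw intensity in the knockout array. Among them were 13 of 13 detected Sprr genes, 11 of 15 Lce genes and 5 of 15 of the others. For Sprr2b and Sprr2j, detected on the knockout array only, that direction follows largely from the detection rule. Sprr3, not detected and so not counted, read 160.1 on the control array and 154.8 on the knockout array. Folds are less certain in dim genes. Above a mean normalized intensity of 500, 8 of 33 members were at least 1.5-fold higher and 0 lower, against 1.07% and 1.76% of 4499 detected genes in that range. Below it, 7 of 10 members were higher and 0 lower, against 5.64% and 6.83% of 5211 genes. Of these 7, Sprr2b and Sprr2j count by their fitted folds only. Lce1g, Lce3a and Tgm3, also among the 7, were short of 1.5-fold in the intensities as normalized by the authors.

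The small proline-rich genes encode short, proline-repeat crosslinking proteins that bridge other envelope components. Each of the 13 detected Sprr genes had a log2 fold over 0 (median 0.67), and 8 reached 1.5-fold. All 8 belonged to Sprr2, the largest branch, whose 10 measured genes had a median log2 fold of 0.90 (0.685 in the authors' intensities). Sprr2b and Sprr2j were detected on the knockout array only, so their direction follows largely from the detection rule. They count among the 8 by fitted folds, and with both at their bounds the Sprr median was 0.58. The Sprr2 genes are close paralogs, and whether each probe tells its gene from the others was not analysed here, so the 10 values may not be 10 separate observations. Each Sprr2 gene rested on a single detected probe.

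The brightest Sprr2 probe was that of Sprr2d, at a normalized intensity of 9908 in the control and 17783 in the knockout (log2 fold 0.84). Sprr2e, whose upstream stretch is the one nearest to that of Sprr2d, read 1017 on the control array and 2669 on the knockout array, 2.63-fold higher. In raw intensity, before any processing, the same Sprr2e probe read 1228.7 and 2614.4. These are the Sprr2 genes with the firmest folds, since both probes were far above background on both arrays and 1.85-fold and 2.44-fold were found in the intensities as normalized by the authors, where background had not been removed.

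Sprr2h went from 108 in the control to 318 in the knockout, 2.93-fold. Sprr2f read 101 and 277, 2.75-fold. Both were close to the detection limits (48.6 on the control array and 49.3 on the knockout array, normalized), and their folds in the authors' intensities were smaller, 1.85 and 1.74. Sprr2i, at 348 and 677, had a log2 fold of 0.96, and Sprr2g, annotated as a transcribed pseudogene, was 1.57-fold higher (700 and 1101). Sprr2b was detected in the knockout array only, at 72.4, which makes it at least 1.49-fold higher than the limit of the control array. Sprr2j, another transcribed pseudogene, was likewise seen in the knockout only, at 54.3 and at least 1.12-fold higher. These 2 genes count among the 8 by their fitted folds (3.28 and 1.59), which are less certain than the bounds.

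At either end of the Sprr2 row the differences were small. Sprr2a read 196 on the control array and 246 on the knockout array (log2 fold 0.33), with its second probe not detected, and Sprr2k read 322 and 418 (0.38). Both were higher in the knockout array but short of 1.5-fold. The 2 Sprr1 genes, which encode cornifins and are the Sprr genes best known from squamous stress, differed less than Sprr2: Sprr1b read 14014 and 16037 (log2 fold 0.19) and Sprr1a 2170 and 2643 (0.29). Sprr4 stood at 2607 and 3557 (0.45). Sprr3, the Sprr gene of oral and oesophageal lining, was not detected on either array.

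**Figure D2:**
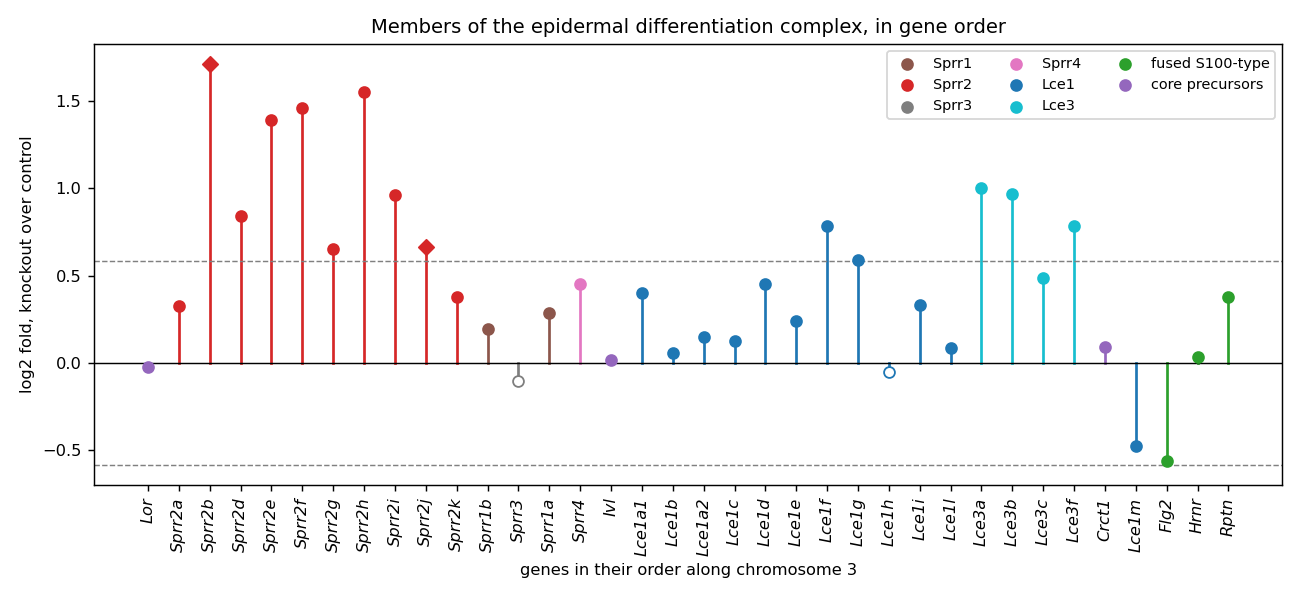
Log2 fold (knockout over control, vertical axis) of the 36 members on chromosome 3, placed in gene order with no scale of distance; diamonds mark genes detected on the knockout array only, open circles genes detected on neither, and dashed lines 1.5-fold. The 8 members in a row from Sprr2b to Sprr2j all lie above the upper line, though the bounds of Sprr2b and Sprr2j (diamonds) would lie below it. A second raised stretch covers Lce3a to Lce3f, and Lce1m and Flg2 lie near the lower line.

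In gene order along chromosome 3, by RefSeq positions, the differences formed stretches. Only the members were placed in this order, so a gene next to another is the next member. Genes outside the rule or without a probe are passed over. Of the 36 members there, 13 were at least 1.5-fold higher, and 8 of these followed each other without a break from Sprr2b to Sprr2j. The genes at the ends of this stretch, Sprr2b and Sprr2j, belong to it by their fitted folds only. Both were detected on the knockout array only, and their bounds (1.49-fold and 1.12-fold) are short of 1.5-fold. Of the 9 members on other chromosomes 2 were higher, Cnfn and Tgm3. The genes next to that stretch, Sprr2a (log2 fold 0.33) and Sprr2k (0.38), were also higher but short of 1.5-fold, as were Sprr1b, Sprr1a and Sprr4 beyond Sprr2k. Further out, Lor next to Sprr2a had -0.03 and Ivl next to Sprr4 had 0.02.

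The late cornified envelope genes encode small cysteine-rich proteins of the last steps of envelope assembly. Their median log2 fold was 0.40 over 15 detected genes, 14 of them on the higher side, and 5 reached 1.5-fold. The 4 Lce3 genes (median 0.88) stood further from 0 than the 11 detected Lce1 genes (median 0.24), a split made with the values known. Lce3b was measured by 3 probes. These read 801 and 1569, 689 and 1293, and 349 and 882 in the control and the knockout, so that every one of them was at least 1.88-fold higher and the third was 2.53-fold higher. Lce3b is the only member past 1.5-fold with more than 1 detected probe.

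Lce3f read 1087 on the control array and 1872 on the knockout array, 1.72-fold higher, and 1.66-fold in the authors' intensities. Lce3a, a dim gene, read 125 and 250, 2-fold higher, but 1.48-fold in the authors' intensities. Lce3c, at 1925 and 2697, was 1.40-fold higher. So all of Lce3 pointed the same way, with 3 of 4 past 1.5-fold.

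Among the Lce1 genes Lce1f had the highest fold, from 1660 to 2861 (1.72-fold). Lce1g was just past 1.5-fold (95.1 and 142.9, log2 fold 0.59) and 1.20-fold in the authors' intensities. Lce1d (4417 and 6028) and Lce1a1 (4493 and 5921) stood at log2 folds of 0.45 and 0.40. Lce1i (0.33), Lce1e (0.24, with both probes above 0), Lce1a2 (0.15), Lce1c (0.13), Lce1l (0.09) and Lce1b (0.06) lay nearer to 0, and Lce1h was not detected. Lce1c and Lce1b were bright on both arrays, at 11641 and 12705 for Lce1c and 10139 and 10540 for Lce1b. Lce1m, known also as Lce5a and placed apart from the other Lce1 genes beside Crct1, went the other way. It read 16762 on the control array and 12035 on the knockout array, 1.39-fold lower, and its raw intensities were 17212.9 and 11672.7.

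The fused S100-type proteins are long, repeat-bearing and histidine-rich or glutamine-rich proteins that fill the corneocyte and join its envelope. They showed no common direction. Flg2, filaggrin-2, was the lowest member of all at 2801 in the control and 1897 in the knockout, 1.48-fold lower and so just short of 1.5-fold (1.43-fold in the authors' intensities). In raw intensity it read 3124.6 and 1859. Hornerin, Hrnr, was level at 2543 and 2602 (log2 fold 0.03). Repetin, Rptn, was higher on both probes, at log2 folds of 0.38 and 0.40, with 7006 and 9088 on the brighter one.

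Of the core precursors, loricrin (Lor), the main protein of the mature envelope, read 24564 on the control array and 24119 on the knockout array, and involucrin (Ivl), the early scaffold, 1102 and 1113. Neither differed by more than 0.03 on the log2 scale, although Lor stood at 0.14 under median scaling. Their raw intensities were lower in the knockout array, 25179.6 and 23568 for Lor and 1325.7 and 1149.1 for Ivl, as for most genes before normalization. Cornifelin, Cnfn, stood apart from them at 5168 and 8687, 1.68-fold higher and 1.67-fold in the authors' intensities. Sciellin, Scel, read 1013 and 818 (log2 fold -0.31), and Crct1, a cysteine-rich protein of the complex, 8910 and 9467 (0.09).

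The transglutaminases crosslink the envelope. Tgm1, the membrane-bound enzyme of keratinocytes, read 1078 on the control array and 1212 on the knockout array (log2 fold 0.17). Tgm5 read 1097 and 1210 on its brightest probe (0.14), its other probes giving 0.11 and -0.31. Tgm3, the soluble enzyme of upper epidermis and hair follicle, was 1.74-fold higher but dim at 55.4 and 96.5, near the detection limits, and only 1.20-fold higher in the authors' intensities. The brighter enzymes, Tgm1 and Tgm5, were thus both within 0.17 of 0 on their brightest probes.

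None of the 4 secreted and adhesion partners reached 1.5-fold, and their median log2 fold was 0.12. Corneodesmosin (Cdsn), the glycoprotein that glues corneocytes together, read 10221 on the control array and 12869 on the knockout array, log2 fold 0.33. Krtdap, a keratinocyte differentiation-associated peptide, read 17148 and 19635 (0.20). Dermokine (Dmkn) had 3 probes between 0.04 and 0.20, the brightest at 30134 and 30897, and suprabasin (Sbsn) had 2 at -0.01 and 0.11. Under median scaling Sbsn turned to 0.07. Taking Sprr and Lce away, the 15 other members had a median log2 fold of 0.09, with 11 above 0 and 2 at least 1.5-fold higher.

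**Figure D3:**
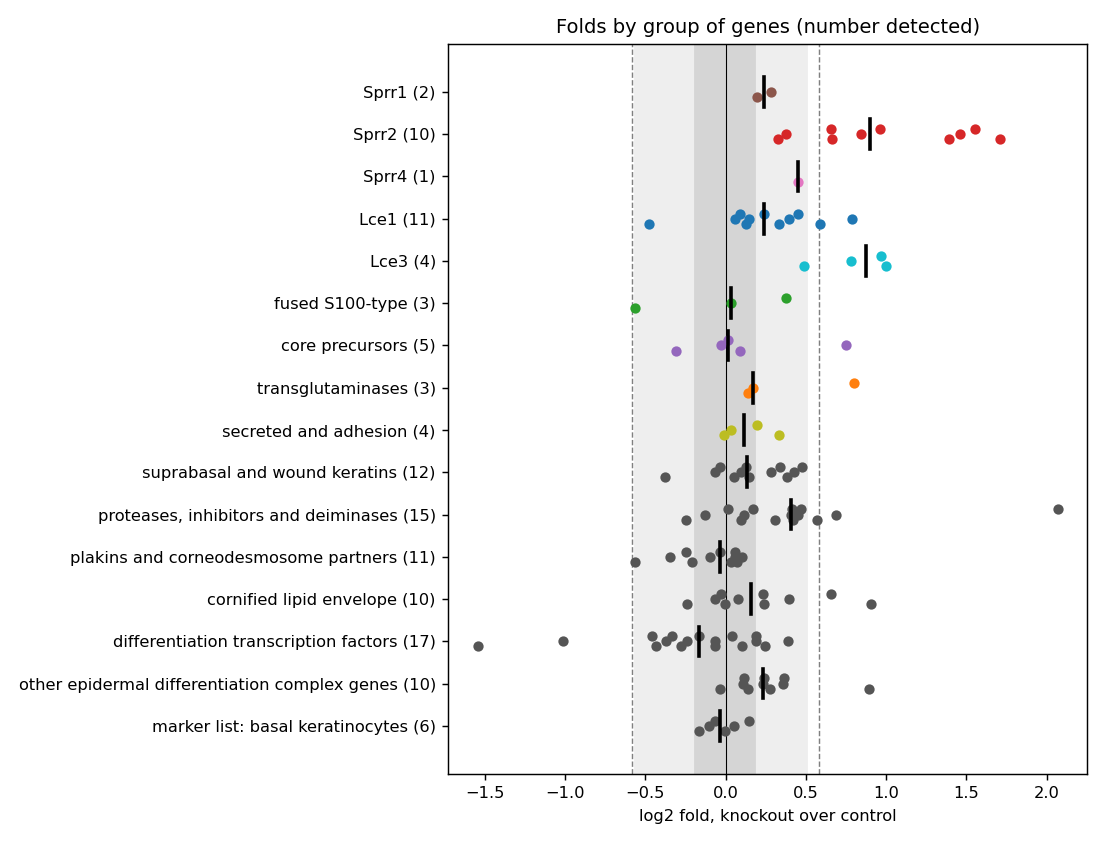
Log2 fold (horizontal axis) of each detected gene by subfamily or list, with the number detected in brackets, black bars at the medians, dashed lines at 1.5-fold, and shading for the quartiles (-0.19 to 0.18) and the 5th to 95th percentiles (-0.56 to 0.51) of all detected genes. Sprr2 and Lce3 have medians of 0.90 and 0.88, while core precursors, fused S100-type genes and the basal keratinocyte list lie around 0. Sprr2b and Sprr2j are drawn at their fitted folds. In the authors' intensities the Sprr2 and Lce3 medians were 0.685 and 0.644.

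Other genes of cornification were read from 6 lists. Proteases, inhibitors and deiminases had a median log2 fold of 0.41, with 13 of 15 detected genes above 0, 2 at least 1.5-fold higher and 0 lower. Serpinb3a, a serpin of stressed epidermis, was 4.21-fold higher (221 and 932), and Klk13, a kallikrein protease, 1.61-fold (743 and 1198). The other detected probe of Klk13 had a log2 fold of 0.455, short of 1.5-fold. St14, not counted as higher, stood at 0.17 on its brightest probe and 0.68 on the other. Klk6 read 5353 and 7950 (1.49-fold), and Padi1, a deiminase that acts on filaggrin-type proteins, 56.9 and 79.0. The keratins had a median of 0.14 over 12 genes, 0 of them past 1.5-fold in either direction by the brightest probe. Krt6a had a log2 fold of -0.04 on that probe but 0.66, past 1.5-fold, on its other detected probe. Krt1, the suprabasal keratin, read 6708 and 9340 (log2 fold 0.48), Krt80 0.43, Krt78 0.39 and Krt77 -0.38.

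Further genes of the epidermal differentiation complex had a median of 0.24, 9 of 10 detected genes above 0 and 1 at least 1.5-fold higher. That gene was S100a7a, an S100 protein of inflamed epidermis (log2 fold 0.89, 89.7 and 166), and it was 1.33-fold higher in the authors' intensities. S100a16 (0.36), S100a9 (0.36) and S100a4 (0.28) followed. Lipid envelope genes had a median of 0.16 over 10, with Sdr9c7, a dehydrogenase of the lipid envelope (0.91, but -0.02 on its lowest probe), and the fatty acid transporter Slc27a4 (0.66, but 1.48-fold in the authors' intensities and so short of 1.5-fold there) at least 1.5-fold higher, then Cyp4f39 (0.40) and Alox12b (0.24). The plakins and corneodesmosome partners had a median of -0.04 over 11 and 0 past 1.5-fold either way, with Dsc1 at -0.57, Perp at -0.34 and seen in the control only, Ppl at -0.24 and S100a10 at -0.21.

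Of 17 detected transcription factors of epidermal differentiation, 11 lay below 0, as did 4790 of the 9710 detected genes, and the median of -0.17 was within the quartiles of all detected genes (-0.19 to 0.18). The AP-1 subunits Fosb (802 and 275) and Fos (4901 and 2429) were 2.92-fold and 2.02-fold lower, and no other factor passed 1.5-fold. Jun stood at 0.39, Junb at -0.17, Fosl1 at -0.33 and Jund at 0.10, values named beside the AP-1 matches and chosen after they were seen. The keratinocyte regulators Trp63 and Gata3 stood at -0.46 and -0.43.

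Markers of the cells in the sample were read beside these values. The 6 basal keratinocyte markers had summed normalized intensities of 71848 (control) and 72372 (knockout), with log2 folds from -0.17 to 0.14. Of the 3 suprabasal markers, Krt1 (log2 fold 0.48) and Krt2 (0.28) were higher and Krt10 was near level (-0.07), so that the list median was 0.28, while the sums of 37770 and 38981 were mostly Krt10. Of 7 detected neutrophil markers, 6 lay above 0, with sums of 7031 and 9554, and Mmp8 and Ngp were not detected. By the brightest probe only Cxcr2 was past 1.5-fold (1.94-fold, and 1.47-fold in the authors' intensities). Csf3r had a log2 fold of 0.16 on its brightest probe but 0.97 on another detected probe. All 7 macrophage markers lay below 0, with sums of 45257 and 35941 and Mrc1 1.70-fold lower. All 6 Langerhans and dendritic cell markers lay below 0 as well, 3 of them at least 1.5-fold lower, with sums of 27572 and 21769. In the authors' intensities those 3, Cd207, Cd209a and Ciita, were 1.5-fold, 1.222-fold and 1.405-fold lower.

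The markers of other tissue components were as follows. Slow muscle markers summed to 1934 in the control and 15588 in the knockout, with 5 of 5 at least 1.5-fold higher, and fast muscle markers to 64141 and 64055. Red blood cell markers summed to 21805 and 6281, with 3 of 3 detected at least 1.5-fold lower. Hair shaft and inner root sheath markers were near the detection limits, 2 of 9 being detected and both in the knockout only. Median log2 folds were 0.38 for endothelium (3 of 4 detected), 0.21 for the sebaceous gland (4 of 4), -0.03 for fibroblasts (6 of 6) and -0.33 for adipocytes (3 of 4). The part of these other cells in the Sprr2 and Lce3 values was not tested. The targeted gene, Ctnnb1, read 2325 and 2344 on one probe and 1048 and 932 on the other, and whether these probes lie in the deleted exons was not analysed here, so they check nothing about the labels.

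**Figure D4:**
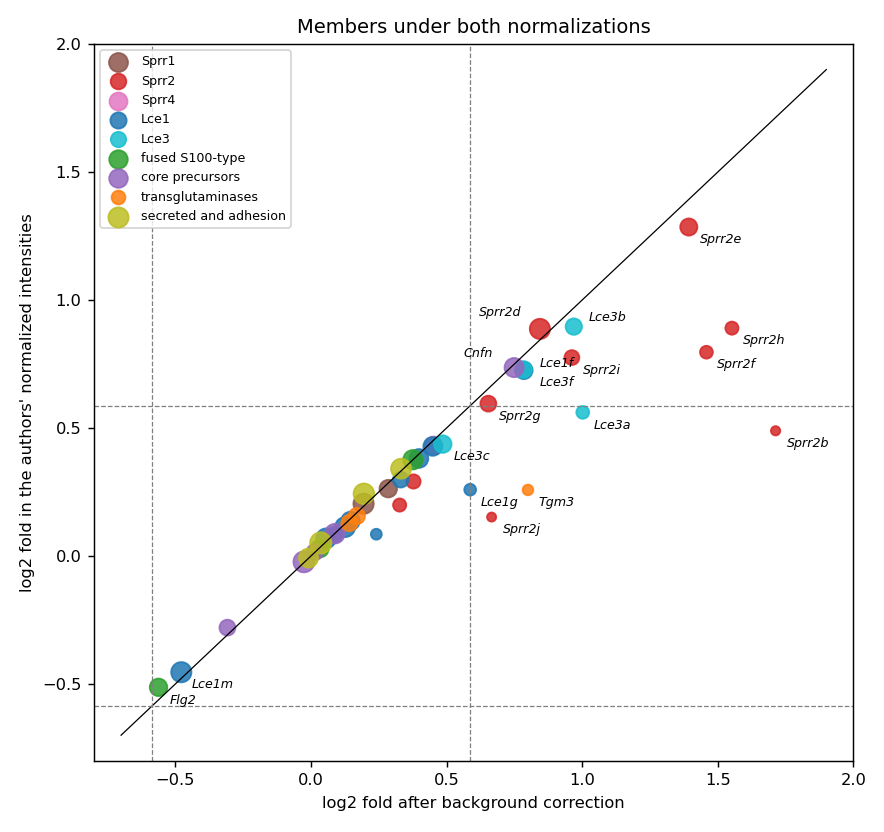
Log2 fold of the 43 detected members after background correction (horizontal axis) against the authors' normalized intensities (vertical axis), with larger points for brighter genes, the line of equality and dashed lines at 1.5-fold. Bright genes such as Sprr2e, Sprr2d, Lce3b and Cnfn lie on or near the line, and dim genes such as Sprr2b, Sprr2h, Sprr2f, Tgm3 and Sprr2j lie well below it.

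The authors' own normalized intensities gave the same picture for bright genes and smaller folds for dim ones. There 10 of the 43 members were at least 1.5-fold higher, against 0.566% of detected genes, and 0 lower, against 0.772%. The 10 were 6 Sprr2 genes (Sprr2d, Sprr2e, Sprr2f, Sprr2g, Sprr2h and Sprr2i), Lce1f, Lce3b, Lce3f and Cnfn. Sprr2b, Sprr2j, Lce1g, Lce3a and Tgm3 were short of 1.5-fold in those values, at 1.40, 1.11, 1.20, 1.48 and 1.20. With quantile normalization but no background correction, 9 members were higher (0.525% of detected genes) and 0 lower (0.731%): the same genes less Sprr2g, which stood at a log2 fold of 0.57.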

How the data were processed

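RNA was biotin-labelled and read on Illumina bead arrays, per the labels' protocols. The authors deposited a raw and a normalized intensity for each probe on a linear scale, per the file headers, and how they normalized is not stated in the sources used here. The submitters' processing notes name GenomeStudio 2011.1. The deposited detection p-values do not follow the intensities beside them (across probes, Spearman's rho was 0.00244 and -0.000406), so sorted p-values were given to sorted intensities. Probes were detected at a p-value under 0.01, a raw intensity of at least 181.8 (control) or 177.9 (knockout), which held for 12488 and 12425 probes.

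Normalization used neqc from limma 3.58.1 (R 4.3.3), with normexp background, an offset of 16 and quantiles, giving log2 values. The offset reduces the folds of dim probes, but these still came out larger than without background correction. Sprr2b, for example, had a log2 fold of 1.71 with it and 0.545 without. A shift shared by all genes cannot be seen. Symbols were updated through a RefSeq table of GRCm38.p6, and 321 probes kept the file's symbol. A gene's value is its brightest probe. The rule of size was 1.5-fold in a gene detected on at least 1 array, and a gene seen on 1 array also has a bound against the lowest detected value of the other. The procedure was tested on simulated data, with changes placed only in probes well above background, so folds of dim genes were not covered. Every detected member is named, as are up to 4 detected genes with the widest folds from each of 6 pathway lists. Other genes named were chosen after their values were seen. Members and lists were chosen with earlier results of these data known. Alternatives changed the normalization, background, offset, detection filter, probe and threshold.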

Additional observations from a re-analysis of the deposited data

How the results depend on the processing

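With 1 array per group no replicate could be left out, and no test was run. No paired analysis was possible because each group has 1 array. The 15 members at least 1.5-fold higher became 9 without background correction and 5 at a threshold of 2-fold, where Sprr2b counts by its fitted fold only. They became 5 with the detection p-values as listed, which kept only 16 members and put the Lce median at 0.13 (log2). Among alternatives chosen after the data were seen, raw intensities with no normalization gave 5 higher, 1 lower (Flg2) and a Sprr median of 0.355, and counting the Sprr2 genes once, by Sprr2d, gave 8 higher and a Sprr median of 0.367. The other counts of higher members ran from 10 (the authors' intensities, and members found by the file's symbol alone) to 15. The partner median turned to -0.09 in raw intensities. Of the 15 genes, 9 kept 1.5-fold without background correction, 10 in the authors' intensities, 12 at an offset of 50 and 15 under median scaling and with probes averaged. None of the 15 changed direction in these 5 settings. Lor and Sbsn changed sign under median scaling, and Sbsn and Tgm5 with probes averaged. The log2 fold of a gene's detected probes differed by 0.25 in the median of 2390 genes. At the 90th percentile it differed by 0.67, which is more than 1.5-fold. The spread between probes can thus be as large as a fold of 1.5, and a gene with a single probe has no second value to set beside it.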
